A study of Mus musculus with 6 samples.

Results

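Anxa13, Ly6d, Gipc2 and Mfsd4a, 4 genes at home in the gut or in other epithelia, were read on each array of a mouse model of hepatocellular carcinoma (HCC). They were picked for their biology out of the probes that the authors had listed as different between tumour and normal liver, so the difference between the groups is what selected them, and it is given here as a description without a test. They are 4 of 2280 mRNA probes in that list and 4 of 45640 probes tested on the array. Each of them had 1 named probe: ASMM9PARTA035839 for Anxa13 (NM_027211), ASMM9PARTA030185 for Ly6d (NM_010742), ASMM9PARTA032419 for Gipc2 (NM_016867) and ASMM9PARTA023287 for Mfsd4a (NM_001114662).

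The 6 samples were livers of C57Bl/6 mice. The 3 samples labelled APC fl/fl came from livers with HCC of mice homozygous for a hypomorphic Apc allele and kept until tumours had formed, at 12 months, here called Apcfl/fl HCC. The other 3, labelled APC +/+, came from healthy control livers, also at 12 months, here called Apc+/+ liver. Apc restrains the Wnt/β-catenin pathway. The methods name no Cre for these animals and thus no cell type to which the loss of Apc would be limited, and the sex of the mice and their number per sample were not given in the sources used here. RNA of the whole tissue was labelled with Cy3 after rRNA removal, with random primers, and hybridised to a single-colour mouse lncRNA array that also carries mRNA probes.

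The liver is built mostly from hepatocytes, with bile ducts as its lining epithelium. Anxa13 encodes annexin A13, a calcium-dependent, membrane-binding protein found at the surface of intestinal epithelial cells. Ly6d encodes a small protein held at the cell surface by a lipid anchor and is known from keratinocytes and other stratified epithelia, and also from early B-lineage cells. Gipc2 encodes a PDZ-domain adaptor that binds the tails of membrane proteins, and Mfsd4a encodes a membrane protein of the major facilitator superfamily of solute transporters.

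Some facts of the arrays bear on every value below. The signals of Apcfl/fl replicates 1 and 2 lay closer together than technical noise, with a mean chi-square per probe of 0.774 over 29685 probes, where other pairs within a group lay between 1.99 and 15.1. They were counted as 1 sample, so the groups held 2 and 3 samples. The share of probes well above background, the scanner software's flag for a spot that exceeds its surroundings, ranged from 70.7% to 76.5% on the Apcfl/fl arrays and from 50.8% to 82.8% on the Apc+/+ arrays, the lowest being Apc+/+ replicate 2. The array also carried 20 negative-control probes, and the brightest of them reached between 5.12 and 5.69 on the normalised log2 scale of the 6 arrays. No probe spot was saturated. The hepatocyte genes Apoa1, Cebpa, Cyp2e1 and Cps1 lay above the negative-control probes on all 6 arrays.

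All 4 epithelial genes were bright in Apcfl/fl HCC. In Apc+/+ liver, 3 of them lay at the level of the negative-control probes and Ly6d alone was clearly measured. The differences between the group means were 6.42 to 7.43 on the log2 scale. The threshold used for other genes below, an adjusted p below 0.05 with a fold of at least 2 by limma, was passed by all 4, as it was by 1.03% of all tested probes in the same direction, 0.896% in the opposite one and 1.92% in either (3.44% as higher with the 6 arrays as 6 samples). For the 4 genes this describes how they were chosen and is no test of them. The count was 0 with any 1 Apc+/+ array removed and in a fit blocked on slide row, with an unadjusted p below 0.05 and a 2-fold rise for all 4. In whole tissue, more cells that carry a transcript and more RNA per cell cannot be told apart.

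Anxa13 had normalised log2 signals of 11.26, 11.19 and 10.71 in Apcfl/fl HCC replicates 1, 2 and 3. In Apc+/+ liver they were 4.61, 4.59 and 4.43. The groups were far apart, with the lowest Apcfl/fl array 68.7-fold above the highest Apc+/+ array. On the linear scale of the scanner, before normalisation, the spot read 2705, 2263 and 1404 against 30.3, 17.1 and 32.5. The tumour mean was 10.97 ± 0.37 (SD, n = 2), and the mean of the normal livers was 4.54 ± 0.10 (SD, n = 3). The log2 difference was 6.42 (SE 0.24), a fold of 85.9. In Apc+/+ liver the probe was flagged well above background on 2 of 3 arrays, but between 16.6% and 25.1% of the negative-control spots of the same arrays were as bright. The control level is therefore only an upper limit. With each Apc+/+ array set to its brightest negative-control probe, Apcfl/fl HCC was at least 46.4-fold higher on this normalised scale.

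Gipc2 gave 11.26, 11.38 and 10.40 in Apcfl/fl HCC replicates 1, 2 and 3, again as normalised log2 signals. The Apc+/+ arrays read 3.72, 3.67 and 3.08. These were the lowest control values of the 4 genes relative to the negative controls, since 30.0% to 55.6% of the negative-control spots on those arrays were as bright or brighter. The Apcfl/fl mean was 10.86 ± 0.65 (SD, n = 2) and the Apc+/+ mean was 3.49 ± 0.36 (SD, n = 3). The log2 difference was 7.37 (SE 0.38), a nominal fold of 166. Against the brightest negative-control probe, which Gipc2 did not reach on any Apc+/+ array, the rise was at least 43.1-fold on this normalised scale.

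Mfsd4a read 11.73, 11.67 and 12.53 in Apcfl/fl HCC, on the normalised log2 scale and in the order of the replicates. In Apc+/+ liver it read 5.46, 4.999 and 5.42. Only Apc+/+ replicate 3 exceeded the brightest negative-control probe of its array, by 0.30 on the log2 scale, and 7.25% to 13.1% of the negative-control spots were as bright as Mfsd4a. The means were 12.12 ± 0.59 (SD, n = 2) and 5.29 ± 0.26 (SD, n = 3). The log2 difference was 6.82 (SE 0.33), a fold of 113. With the control arrays held at no less than the brightest negative-control probe the rise was at least 95.9-fold on this normalised scale.

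Among the 4 genes, RefSeq's promoter table of build GRCm38.p6 held a window for Mfsd4a. It is shown because it holds the annotated start of a transcript that was near the floor in Apc+/+ liver and bright in Apcfl/fl HCC. The window lies at chr1:132068013-132068312 on the minus strand and runs from 250 bases before the annotated start to 50 after it. In the sequence below, in the gene's direction, capitals mark motifs that were found.
Mfsd4a: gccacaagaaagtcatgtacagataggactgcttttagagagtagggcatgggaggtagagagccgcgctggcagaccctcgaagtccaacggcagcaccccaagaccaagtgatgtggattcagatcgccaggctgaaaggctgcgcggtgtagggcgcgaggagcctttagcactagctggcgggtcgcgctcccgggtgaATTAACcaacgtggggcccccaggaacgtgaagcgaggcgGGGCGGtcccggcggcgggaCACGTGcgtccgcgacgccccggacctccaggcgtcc
Both strands were searched for 5 motifs, and the 3 in capitals do not overlap. The HNF1 core GTTAAT, read on the opposite strand, stands at bases 204 to 209 and occurs in 7.10% of the 32851 windows of this length. The GC box GGGCGG stands at bases 244 to 249 and occurs in 35.7% of windows. The E-box CACGTG stands at bases 264 to 269 and occurs in 7.15%. The TCF/LEF core CTTTGAT and the TATA box TATAAA, present in 3.73% and 13.6% of windows, are not written in this one. The window is rich in G and C, at 64.3% against a median of 52.7%, and holds 28 CpG dinucleotides against a median of 7. A motif match describes letters and does not show a bound factor.

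Ly6d was the one member with a measured level in both groups. Its normalised log2 signals were 17.29, 17.26 and 17.65 in Apcfl/fl HCC and 11.30, 9.34 and 9.45 in Apc+/+ liver, each in the order of the replicates. The Apc+/+ arrays thus fell into a higher replicate 1 and a lower pair, and all 3 were above every negative-control probe by at least 3.85. The spot's intensity before normalisation was 165249, 150597 and 223664 in Apcfl/fl HCC, and 3011, 613 and 732 in Apc+/+ liver.

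The Ly6d means were 17.46 ± 0.26 (SD, n = 2) and 10.03 ± 1.1 (SD, n = 3). The log2 difference was 7.43 (SE 0.66), a fold of 172. Among 24465 probes above the negative controls on all 6 arrays, 3 probes had so large a rise, Ly6d being one of them. Ly6d was chosen on this difference, so its rank is a description and no support. That count also leaves out probes at the floor in any array, and over all 45640 tested probes the largest rise was 11.30. Against Apc+/+ replicate 1 alone the fold was 71.6, and against replicates 2 and 3 it was 278 and 258. Apc+/+ replicate 1 was also the only control array in row 1 of the slide, which held all the Apcfl/fl arrays, so that the comparison within the row is the one against replicate 1. Within that row the log2 difference was 6.16 for Ly6d. For Anxa13, Gipc2 and Mfsd4a it was 6.36, 7.15 and 6.65, but there the control array read below its brightest negative-control probe, so these sizes are limited by the floor.

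**Figure D1:**
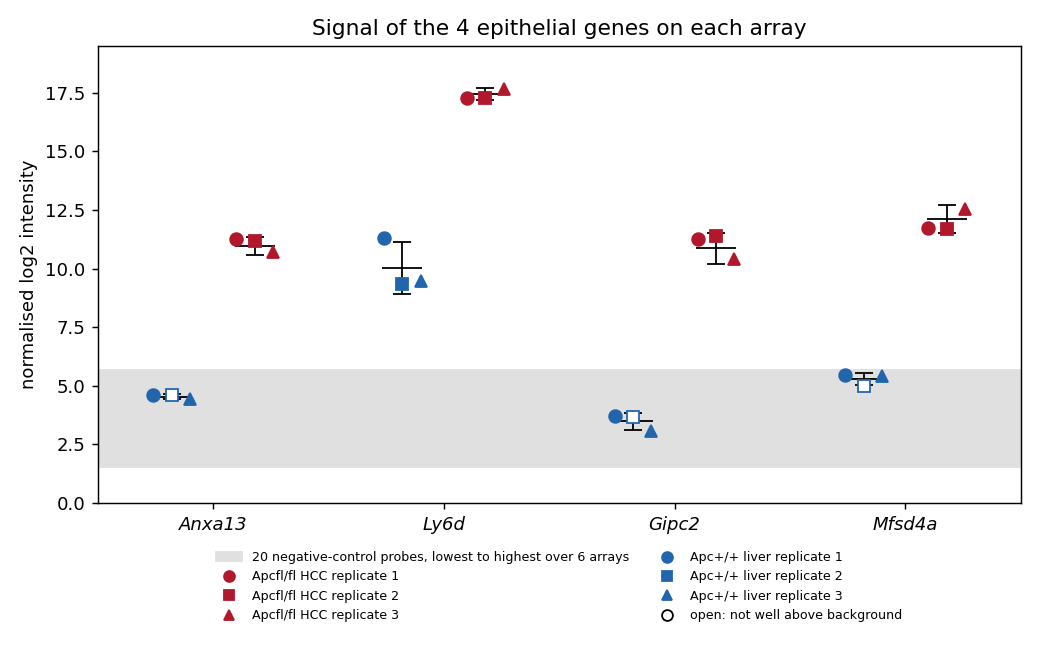
Normalised log2 intensity of the 4 genes on each of the 6 arrays, with replicates as circles, squares and triangles, the mean and SD in black (Apcfl/fl replicates 1 and 2 averaged, n = 2, and Apc+/+, n = 3), and the band of the negative-control probes in grey. The band runs from the lowest to the highest such probe over the 6 arrays. The Apcfl/fl arrays lie between 10.40 and 17.65 and do not overlap with the Apc+/+ arrays, a difference on which the genes were chosen. In Apc+/+ liver Ly6d alone is above the grey band, on all 3 arrays. Mfsd4a on Apc+/+ replicate 3, at 5.42, is inside the band and exceeds only its own array's brightest negative-control probe, at 5.12.

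The size of 3 of the differences moved with the signal taken from the scanner files and its background correction. The alternative, normexp, took the median signal in place of the processed one. It subtracted the local background, modelled what remained and added an offset of 50 to every spot, which narrows differences from low values. With it the log2 difference was 4.55 for Anxa13, 4.69 for Gipc2 and 5.37 for Mfsd4a. That of Ly6d was 7.30. The values of Anxa13, Gipc2 and Mfsd4a lie below the log2 bounds of 5.54, 5.43 and 6.58 that the negative-control floor gave. Those bounds therefore hold only for the processed signal as normalised here. Any ranking of Anxa13, Gipc2 and Mfsd4a by fold would rest on control values at the floor.

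Within the Apcfl/fl group the 4 genes did not vary together. Replicate 3 was lower than the mean of replicates 1 and 2 for Anxa13 and Gipc2, by factors of 1.43 and 1.90. It was higher for Ly6d and Mfsd4a, by factors of 1.29 and 1.78. Replicates 1 and 2 differed by at most 0.12 on the log2 scale for any of the 4. These differences of replicate 3 were ordinary for the arrays, since 48.1% of tested probes differed as much as Ly6d, 36.7% as much as Anxa13, 22.2% as much as Mfsd4a and 19.1% as much as Gipc2. With 1 sample on either side they have no replicate check.

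Within the Apc+/+ group the difference of Ly6d stood apart from that of the others. Replicate 1 exceeded the mean of replicates 2 and 3 by 1.90 on the log2 scale, a factor of 3.74, and 1.43% of tested probes differed by as much in either direction. For Anxa13, Gipc2 and Mfsd4a the same difference was 0.09, 0.34 and 0.25, all at floor level. Replicates 2 and 3 differed by 0.11 for Ly6d.

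**Figure D2:**
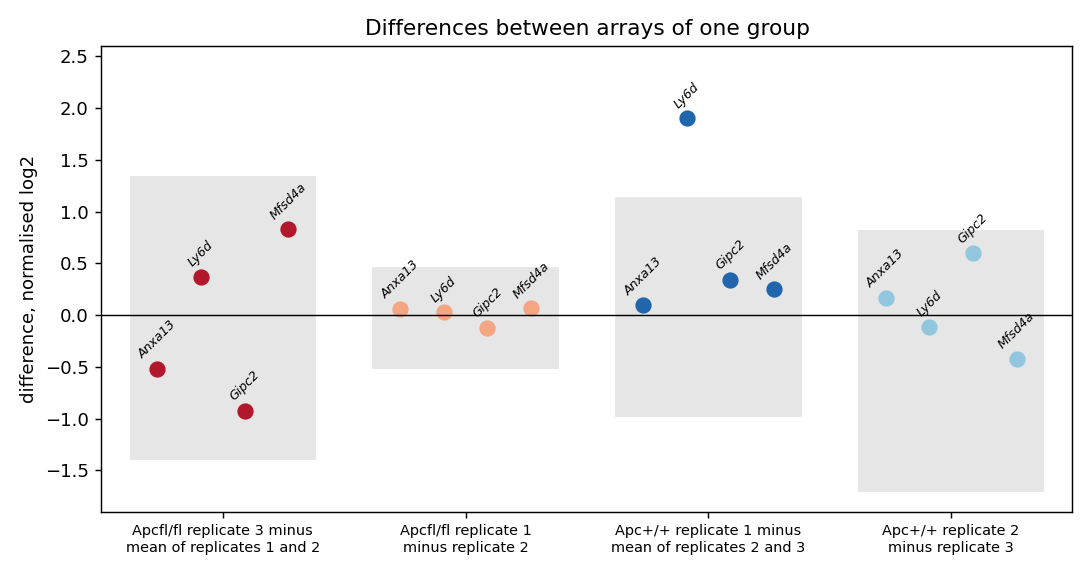
Differences between arrays of the same group, in normalised log2 intensity, for the 4 genes, with the range from the 5th to the 95th percentile of all 45640 tested probes in grey. Anxa13 and Gipc2 lie below 0 and Ly6d and Mfsd4a above it for Apcfl/fl replicate 3, and Ly6d in Apc+/+ replicate 1, at 1.90, is outside the grey range.

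Ly6d and Anxa13 both lie on chromosome 15, and Gipc2 and Mfsd4a on chromosomes 3 and 1. Ly6d stands in the cluster of Ly6 genes, which encode related small surface proteins carried by epithelial cells, leukocytes and stem cells. Of 25 protein-coding genes within 500 kb of it in RefSeq, 11 had a named probe. All 11 were in the authors' list of differences on these samples, so they are not independent evidence of a direction. Of the 11, 9 were higher and 2 lower in Apcfl/fl HCC, and 5 passed the adjusted threshold, all higher. In the authors' whole list of mRNA probes 57.3% were higher, and 276 of 2280 passed as higher and 167 as lower. With the 6 arrays as 6 samples 9 of the 11 passed. Without Apcfl/fl replicate 3 there were 2, in a fit whose only tumour sample was assumed to vary like the controls, and without any 1 of the Apc+/+ arrays none passed by limma, where 8 to 9 had an unadjusted p below 0.05 with a 2-fold rise.

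The 5 were Jrk, Them6, Ly6a, Ly6c1 and Ly6c2. Ly6a, which encodes the stem cell antigen Sca-1, read 17.55, 17.48 and 16.18 in Apcfl/fl HCC and 12.92, 12.79 and 12.89 in Apc+/+ liver, in normalised log2 signals. Its log2 difference was 3.98 (SE 0.42, adjusted p 0.0286 by limma). Ly6c2, a surface marker of monocytes, rose by 3.71 (SE 0.37, adjusted p 0.0243 by limma). Them6, a thioesterase family gene of the same stretch, rose by 3.21 (SE 0.26, adjusted p 0.0194 by limma).

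Lypd2 was one of the 2 neighbours on the lower side. It was at 8.30, 8.27 and 9.77 in Apcfl/fl HCC against 11.13, 10.53 and 10.56 in Apc+/+ liver, which is a log2 difference of -1.71 (adjusted p 0.167 by limma). Lynx1, which lies between Lypd2 and Ly6d, had a difference of 1.97 (adjusted p 0.0670 by limma). In Apcfl/fl replicate 3, where Ly6d was higher than the mean of replicates 1 and 2, its neighbours went both ways. Ly6a, Ly6i, Ly6c2, Ly6e and Ly6c1 were lower there, with log2 differences of -1.34, -1.47, -0.90, -0.90 and -0.09. Lypd2, Lynx1, Adgrb1, Them6, Jrk and Ly6m were higher, with 1.48, 0.94, 0.94, 0.25, 0.07 and 0.05. The excess of Ly6d in Apc+/+ replicate 1 was not matched by any of the 11, whose own differences ran from -0.50 to 0.69. Ly6a, Ly6c1, Ly6c2 and Ly6i have closely similar sequences, and their probes may each read more than 1 of these genes.

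**Figure D3:**
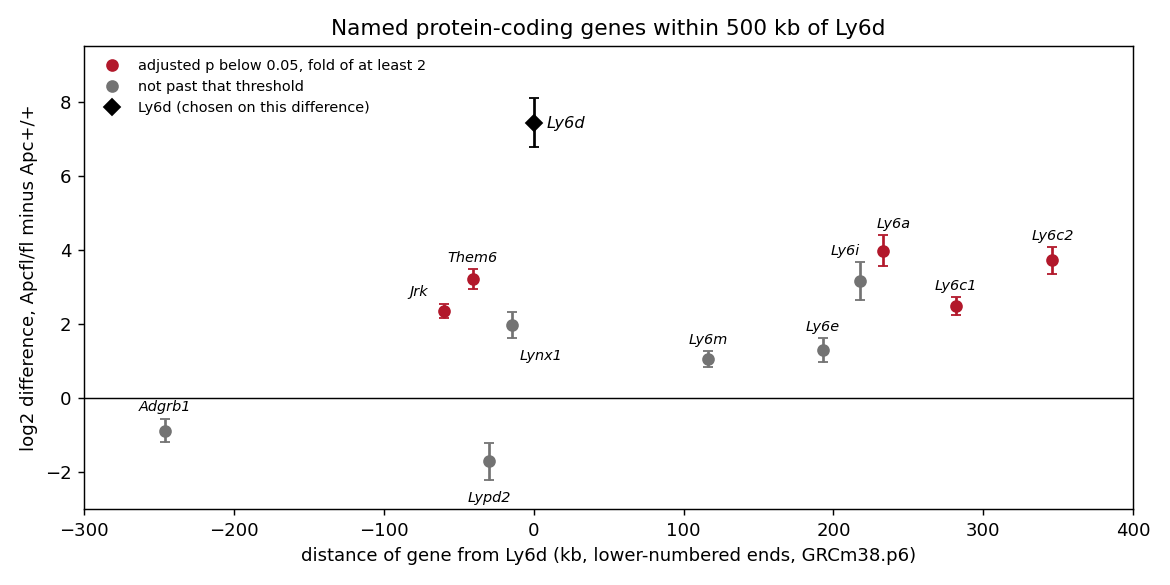
Log2 difference of Apcfl/fl minus Apc+/+ (points, with SE bars) for Ly6d and the 11 named protein-coding genes within 500 kb, by distance in kb on build GRCm38.p6, with genes past the adjusted threshold in red, other neighbours in grey and Ly6d in black. Ly6d, at 7.43, is above all named neighbours, the nearest in size being Ly6a at 3.98, and Lypd2 and Adgrb1 are below 0.

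In the wider Ly6 and uPAR domain family, 12 of 33 listed genes were named. The family shares 1 protein fold with Ly6d. Ly6a, Ly6c1, Ly6c2, Ly6e, Ly6i, Ly6m, Lynx1 and Lypd2 are also among the neighbours of Ly6d counted above, by the same probes. The family is therefore largely a recount of them and no separate support. Of the 12, 10 were higher and 2 lower, with a median log2 difference of 2.08 against 1.05 for all mRNA probes of the authors' list and 0.06 for all tested probes. The adjusted threshold was passed by 4, which were Ly6a, Ly6c1, Ly6c2 and Ly6g6e, all higher, beside the 276 of 2280 probes of the authors' list. With 6 arrays as 6 samples 9 passed higher and 1 lower, and without any 1 Apc+/+ array none passed by limma while 8 to 9 had an unadjusted p below 0.05 with a 2-fold rise. Ly6e was covered by 5 probes that disagreed, as 4 had differences from 1.29 to 1.95 and 1 had -0.98.

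For the families of the other members few genes were named. Of 11 further annexins 2 were named, and Anxa5, a widely expressed annexin, rose by 2.26 (SE 0.29, adjusted p 0.0390 by limma). Anxa2 had a difference of 1.38 (adjusted p 0.179 by limma). Of 24 transporters listed with Mfsd4a, Mfsd6 and Mfsd14a were named, with differences of 1.33 and 0.94 and adjusted p-values of 0.0585 and 0.224 by limma. No relative or partner of Gipc2 was named. Near Anxa13, Tbc1d31 and Fam83a had differences of 2.34 and 1.36, and near Mfsd4a, Fam72a had 1.74, none past the adjusted threshold.

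The profiles most like those of the 4 genes were sought among 2186 named genes, as the root mean square distance over the 5 samples after each gene was centred on its own mean. Because most of them had been listed for a difference between the same groups, the nearness is a description. Nearest to Anxa13 was Tff2, a trefoil peptide of stomach mucus, at a distance of 0.23, followed by Arhgap22 (0.33) and Slc22a12 (0.42). Tff2 read 12.94, 12.92 and 12.05 in Apcfl/fl HCC and 6.10, 6.37 and 6.43 in Apc+/+ liver, so that it too was lower in Apcfl/fl replicate 3. Arhgap22 and Slc22a12 were higher there, unlike Anxa13.

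Nearest to Gipc2 were Lcn2, which encodes the iron-siderophore-binding lipocalin 2 (0.25), the carbonyl reductase Cbr3 (0.30) and the cytokine Lif (0.60). Nearest to Mfsd4a were Lif (0.22), the urate transporter Slc22a12 (0.26) and Arhgap22 (0.29), each with its highest value in Apcfl/fl replicate 3, as for Mfsd4a. Nearest to Ly6d were Lcn2 (0.53), Lif (0.61) and Cbr3 (0.69). In Apcfl/fl replicate 3 Lcn2 and Cbr3 were below the other Apcfl/fl arrays, unlike Ly6d, and Lif was above them, unlike Gipc2. The distances of Anxa13, Gipc2, Mfsd4a, Lif and Slc22a12 rest on control values at or near the floor, so neither the order of the matches nor the size of one member's distance against another's is firm. Between the members themselves the distance ran from 0.51, for Anxa13 and Mfsd4a, to 0.87, for Anxa13 and Ly6d.

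**Figure D4:**
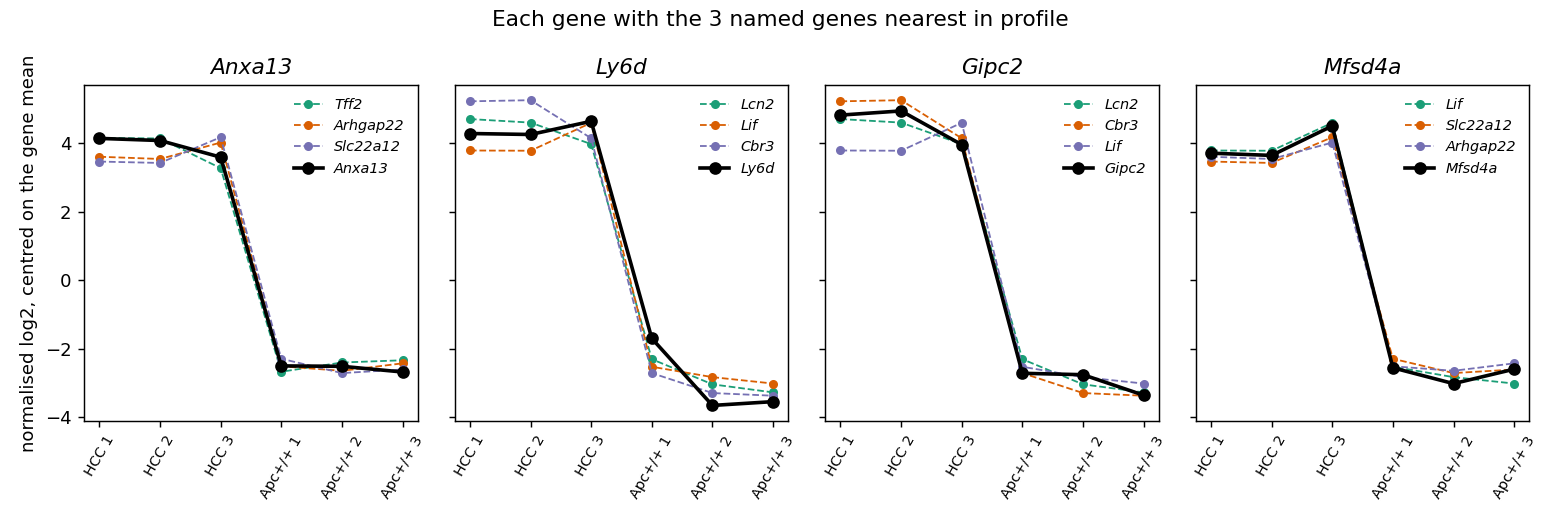
Normalised log2 intensity on the 6 arrays, centred on each gene's mean over the 5 samples, for the 4 genes (black) and the 3 named genes nearest to each in profile (dashed). Anxa13 and Tff2 fall in Apcfl/fl replicate 3 while Mfsd4a and Lif rise there. Ly6d departs from its nearest genes in the Apc+/+ arrays, and from Lcn2 and Cbr3 in Apcfl/fl replicate 3 as well.

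Other genes of these epithelia were taken from 5 lists, for intestine, bile duct, stomach, kidney tubule, and stratified epithelium with urothelium. Of 89 listed genes 10 were named. In Apcfl/fl HCC 8 of them were higher and 2 were lower, and they had a median log2 difference of 2.68, where 57.3% of the authors' mRNA probes were higher with a median of 1.05. The 10 were in the authors' list and thus selected on this contrast. The 5 lists were also chosen with earlier results of these data known, so the comparison is no test of an excess. The adjusted threshold was passed by 4, all higher, against 276 of 2280 in that list, and by 6 with the 6 arrays as 6 samples. Without Apcfl/fl replicate 3, again with the spread taken from the controls, the number was 1, and without any 1 of the Apc+/+ arrays it was 0 by limma, where 6 to 7 had an unadjusted p below 0.05 with a 2-fold rise.

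Of the intestinal list, Tff3, the trefoil peptide of goblet cells, was at 15.03, 15.12 and 14.67 in Apcfl/fl HCC and at 8.29, 9.88 and 9.68 in Apc+/+ liver. Its log2 difference was 5.59 (SE 0.54, adjusted p 0.0227 by limma), and unlike Ly6d it was lowest in Apc+/+ replicate 1. Tspan8 had a difference of -1.02 (adjusted p 0.183 by limma). The stomach gene Tff2 given above rose by 6.19 (SE 0.32, adjusted p 0.0125 by limma).

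In the list for urothelium and stratified epithelium, the latter being the tissue for which Ly6d is best known, 4 of 22 genes were named. Sfn, which encodes the epithelial 14-3-3 protein sigma, rose by 4.09 (SE 0.28, adjusted p 0.0163 by limma). Krt4, a keratin of the oesophageal lining, rose by 2.51 (SE 0.24, adjusted p 0.0223 by limma). Sprr1a, a component of the cornified envelope, read 12.36, 12.48 and 16.34 in Apcfl/fl HCC and 8.35, 6.94 and 6.48 in Apc+/+ liver. Like Ly6d it was highest in replicate 3 of the Apcfl/fl group and in replicate 1 of the Apc+/+ group, and its difference of 7.12 (SE 1.26) had an adjusted p of 0.0670 by limma. The remaining gene, Upk1a, had a difference of 1.33 (adjusted p 0.198 by limma) and exceeded the brightest negative-control probe on 1 Apc+/+ array. The summed signal of these 4 listed genes ranged from 15.10 to 16.78 in Apcfl/fl HCC and from 10.73 to 11.16 in Apc+/+ liver on the log2 scale.

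Markers of other cells that may carry the 4 genes moved in part with the groups. Most genes with a name had been listed by the authors for a difference between these groups, so such movement follows in part from that selection. Of 17 bile duct genes 3 were named, none past the adjusted threshold at its brightest probe. Prom1 had a difference of 2.85 (adjusted p 0.117 by limma) at its brighter probe and rose by 3.22 at its other probe (adjusted p 0.0306). On no Apc+/+ array did either Prom1 probe exceed the brightest negative-control probe, so both sizes are limited by the floor. Bicc1 had 1.80 and Aqp1 had -1.87. The sum of the 3 is carried by Aqp1, whose mean was 12.41 in Apcfl/fl HCC and 14.28 in Apc+/+ liver. Their summed signal ranged from 11.43 to 13.62 in Apcfl/fl HCC and from 13.99 to 14.51 in Apc+/+ liver. Of 15 genes of B cells and plasmacytoid dendritic cells, where Ly6d is also found, Vpreb3 alone was named, at 10.64, 10.70 and 9.49 against 8.41, 7.84 and 7.77, with an adjusted p of 0.0889 by limma for a difference of 2.07.

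Of 13 macrophage, T cell and other leukocyte genes 3 were named, and their summed signal was 11.66 to 13.14 in Apcfl/fl HCC and 10.36 to 10.99 in Apc+/+ liver. Cd14, the monocyte co-receptor for endotoxin, rose by 3.16 (adjusted p 0.0167 by limma). Adgre1 and Cd74 had differences of 1.64 and 1.57, with adjusted p-values of 0.170 and 0.225 by limma. The sum is carried by Cd74, whose mean was 12.17 in Apcfl/fl HCC and 10.59 in Apc+/+ liver. Of 13 pancreatic acinar genes 3 were named, at a summed 10.39 to 10.72 and 10.69 to 10.76. The 4 named hepatocyte genes of 15 summed to 14.60 to 15.58 in Apcfl/fl HCC and to 17.09 to 17.56 in Apc+/+ liver. Of the endothelial and the fibroblast lists 1 gene each was named, with differences of -1.46 for Pecam1 and -1.52 for Lrat, neither past the adjusted threshold. Because most named genes were selected on this contrast, the sums do not measure the share of any cell type. The part of any of these cells in the signal of Anxa13, Ly6d, Gipc2 and Mfsd4a was not tested, and the other markers of these lists, such as Krt7, Krt19, Epcam and Cdx2, were not analysed here.

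Of 25 Wnt/β-catenin feedback and target genes, 7 were named, 2 higher and 5 lower. Ccn5 and Lcn2 rose by 5.44 and 7.20 (adjusted p 0.0125 by limma for both), and Cyp2e1, a cytochrome of the hepatocytes around the central vein, fell by 4.06 (adjusted p 0.0194 by limma). Lect2, Cyp1a2, Tbx3 and Oat had differences of -2.58, -2.38, -1.51 and -1.22, none past the adjusted threshold. The median of the 7 was -1.51, where 57.3% of the authors' mRNA probes were higher with a median of 1.05. Lcn2, which also had the profile nearest to Gipc2 and Ly6d, was among the 2 that were higher, against 5 that were lower. A link of the 4 genes to the pathway was not tested. All 7 were in the authors' list, and the 25 genes too were chosen with earlier results of these data known.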

How the data were processed

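Single-colour arrays of 3 Apcfl/fl HCC and 3 Apc+/+ liver samples were analysed. The authors deposited 1 scanner file of 62513 spots per array, written by Agilent Feature Extraction 11.0.1.1, with the processed signal, which is the spot's intensity after background subtraction, the median signal and background, and deposited quality flags (well above background, outlier, saturated). They also deposited a table of the probes they called different, with a normalised log2 value per array after quantile normalisation, used here as an alternative and for gene names. Its fold changes and p-values were not used.

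From the processed intensity, control spots and outlier spots were left out, log2 was taken, spots of a probe were averaged and 59631 probes were quantile normalised. Probes well above background on at least 3 of 6 arrays were tested (45640) with limma 3.58.1 in R 4.3.3, with Benjamini-Hochberg adjustment. A call needed an adjusted p below 0.05 and a 2-fold change. The test was run on simulated data with independent noise per probe and no effect of slide row, where most planted changes were not called. That run does not show how the fit behaves under the slide rows of these arrays. Apcfl/fl replicates 1 and 2 were averaged as 1 sample. The labels do not say that the samples came from separate animals, so p-values measure only the spread between these samples, and the number of arrays limits the precision. All arrays shared 1 scan time and lay in 2 rows of a slide, with Apc+/+ replicates 2 and 3 in the second row.

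The 1200 negative-control spots of 20 probes were placed on the normalised scale through each array's own curve. Where a gene had several probes the brightest was used. Of 2280 mRNA probes in the table, 2239 had a RefSeq symbol and 41 had none, and 106 more were named by the scanner files. The genes named were the 4 members, the 3 nearest profiles of each, the named genes within 500 kb and those of the lists. Members and lists were chosen with earlier results of these data known. Alternatives were normexp with an offset of 50 (on the median signal, as the mean signal was not used here), other filters, 6 arrays as 6 samples, blocks, a trended robust variance, the authors' log2 values and leaving out each array. Arrays of a chemical carcinogen model were not analysed here. The array design is of an older build than GRCm38.p6, so no gene coordinates are given beyond the RefSeq window.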

Additional observations from a re-analysis of the deposited data

How the results depend on the processing

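The differences of Anxa13, Ly6d, Gipc2 and Mfsd4a stayed positive under each alternative that gave a value, whereas the number of calls did not hold. Against 878 probes called over all tested (either direction), 4 members, 4 Ly6 family genes, 5 genes near Ly6d and 4 epithelial list genes, all these counts were 0 by limma when the slide row was a block, without the 2 near-identical Apcfl/fl arrays, and with Apc+/+ replicates 2 and 3 averaged. At an unadjusted p below 0.05 with a 2-fold change the settings without calls held 3964 to 5978 probes, 4 members, 8 to 9 Ly6 family genes, 8 to 9 genes near Ly6d and 5 to 7 epithelial genes. Normexp gave 1651 probes and 7 Ly6 family genes, with log2 differences of 4.55 (Anxa13), 4.69 (Gipc2) and 5.37 (Mfsd4a). No filter gave 277 probes and 2 Ly6 family genes. A filter of well above background on all 6 arrays gave 1966 probes, 7 Ly6 family genes, 8 near Ly6d and 1 member, since only Ly6d passed it. The 6 arrays as 6 samples gave 3441 probes, 9 Ly6 family genes and 9 near Ly6d, and the trended robust variance gave 1900 probes and 7 Ly6 family genes. The slide row block gave 6.16 for Ly6d. Without the 2 near-identical arrays Anxa13 was at 6.16 and Mfsd4a at 7.24, the authors' values gave 6.66 for Anxa13, and controls at the brightest negative-control probe gave 5.54 for Anxa13 and 5.43 for Gipc2. The cause of these shifts was not tested.

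Leaving out each array in turn gave 0 to 973 probes, 0 to 4 members, 0 to 4 Ly6 family genes, 0 to 5 genes near Ly6d and 0 to 4 epithelial genes. Without Apc+/+ replicate 1, 2 or 3 the probes numbered 0, 1 and 0, and without Apcfl/fl replicate 3 they numbered 361. That fit, and the one without the near-identical pair, had 1 tumour sample, assumed to vary like the controls. The log2 differences then ranged from 6.37 to 6.68 for Anxa13, 7.17 to 7.84 for Gipc2, 7.09 to 8.06 for Ly6d and 6.41 to 6.91 for Mfsd4a. Replicate numbers did not pair the samples (correlations of 0.06, -0.07 and 0.04). With the replicate block over 6 arrays, 1075 probes and 4 members were called, and the differences were 6.51 for Anxa13, 7.53 for Gipc2, 7.37 for Ly6d and 6.68 for Mfsd4a. Leaving out the near-identical pair, averaging the controls and the negative-control floor were chosen after seeing the data. Signal over background limits Anxa13, Gipc2 and Mfsd4a in Apc+/+ liver to upper bounds.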
